A study of Rattus norvegicus with 8 samples.

Results

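The 7 genes described here concern small organic osmolytes in cells of the rat nucleus pulposus, the soft centre of a spinal disc. Akr1b1, Sord, Slc6a6, Slc6a12, Slc38a2 and Pnpla6 make, break down or import them, while Sgk1 encodes a kinase that acts on their carriers. All were chosen by symbol for their known roles, with earlier results of these data known. Each was found as 1 row among 13613 listed genes. RNA was sequenced from 4 TonEBP knockdown libraries, whose cells carried a short hairpin RNA against TonEBP after transduction, and from 4 control libraries, whose titles name the vector PLKO1. All 8 cultures were primary cells grown out of rat tissue explants and expanded in serum-containing medium, and all had 110 mM NaCl added for 8 h before RNA was taken, so there is no culture without added salt in the comparison. By their titles each group holds 1 library of each of 4 numbered Sets, and knockdown and control libraries were compared within their Set. The sources used here give neither what a Set is nor the animals, strain, age and number of hairpins behind it. P-values with the Set as a block compare the mean difference between knockdown and control with how far it varies between these Sets. The fits estimate that variation with help from other genes. That variation may be technical.

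Cells in salty surroundings lose water, and over hours they replace the inorganic ions they first take up with organic osmolytes that do not disturb proteins. The main ones are sorbitol, which aldose reductase makes from glucose, myo-inositol, taurine and betaine, which are imported with sodium, glycerophosphocholine, which comes from membrane lipid, and neutral amino acids. TonEBP, the transcription factor encoded by Nfat5, is known from kidney and other tissues to switch on several of these genes when tonicity rises, and disc cells meet high tonicity because the proteoglycans around them hold cations and water.

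Libraries held between 9567488 and 15782202 reads on the listed genes. The deposited values are normalized counts, that is, reads divided by a factor for each library, and each value given below is a normalized count unless a scale is named. The hairpin's own target, Nfat5 (ENSRNOG00000011879), was found at 86.7, 68.1, 38.8 and 32.2 CPM (reads scaled to a common library total) in knockdown libraries 1 to 4, against 137, 183, 142 and 66.1 CPM in control libraries 1 to 4. Nfat5 was lower in the knockdown library of every Set, while the groups overlapped on the CPM scale, with knockdown libraries 1 and 2 above control library 4. Of the 18 markers of nucleus pulposus on the list used, 12 were among the listed genes, and Acan, Krt19, Foxf2, T, Noto and Shh are not analysed here. Col2a1 stayed at or under 0.713 CPM and Sox9 at or under 2.30 CPM in all 8 libraries, while Foxf1 ran between 10.8 and 20.6 CPM and Krt8 between 6.06 and 73.4 CPM, so the cell type rests on the labels more than on these genes. Summed, the nucleus pulposus markers ran from 203 to 1539 CPM in knockdown and from 227 to 1272 CPM in control libraries, highest in Set 1 and lowest in Set 4 in both groups. Car3 alone reached 1263 CPM in knockdown and 906 CPM in control libraries, and Slc2a1, which is also on the list of salt-induced genes below, reached 216 CPM in knockdown and 310 CPM in control libraries, so these genes carry most of the highest sums. Summed markers of annulus fibrosus or tendon (6 of 7 genes listed, mostly Thbs2) ran from 17291 to 37485 CPM in knockdown and from 6941 to 22393 CPM in control libraries. They were higher in the knockdown library of Sets 1, 2 and 4 and level in Set 3, at 17291 against 17242 CPM. Summed markers of macrophages and leukocytes (7 of 13 listed) ran from 34.7 to 62.4 CPM in knockdown and from 40.5 to 81.7 CPM in control libraries. Of endothelial markers 2 of 8 were listed and of erythroid markers 0 of 5, with endothelial sums between 0.610 and 3.71 CPM over all libraries. The part of any of these cell markers in the results below was not tested, and in bulk RNA fewer cells of a type and less RNA per cell cannot be told apart.

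By the limma estimates below, Akr1b1 and Sgk1 stood at 45.3% and 45.2% of their control level, Slc38a2 at 70.02%, Slc6a6 at 85.1%, Sord at 112% and Pnpla6 at 118%. The 95% intervals of the first 3 lie below 100% and those of the other 3 span it. Slc6a12 had few reads and a wide interval. Akr1b1 and Sgk1 were lower in the knockdown library of all 4 Sets, which is 2 of 7 members against 16.2% of the 12383 genes tested, and 0 members were higher in all 4 Sets, against 17.2%. The test was limma on log2(normalized count + 1) with the Set as a block, and a gene was called at a Benjamini-Hochberg adjusted p under 0.05 over all genes tested. All 7 members passed its filter on low reads. It called 0 members and 0 genes in all (0% of those tested), with a smallest adjusted p of 0.0578 over the table, while 3 of 7 members (Sgk1, Akr1b1 and Slc38a2) and 2856 of 12383 genes (23.1%) had an unadjusted p under 0.05. EdgeR with the Set as a block also called 0 members. DESeq2 with the Set as a block called Sgk1 and Akr1b1 lower and 0 members higher, where 5.13% of its 12557 genes with an adjusted p were called lower and 4.05% higher (9.18% in all). The authors' deposited table lists the same 2 members as lower, where 5.22% of genes were called lower and 4.09% higher (9.31% in all). Of its 1140 calls, 1115 are shared with DESeq2 with the Set as a block. Both rest on the same reads, so they are not independent of each other. On simulated reads DESeq2 with the block called 41 unchanged genes, against 14 for limma. For 0 of the 7 members were the groups free of overlap, against 6.34% of genes tested (3.44% lower and 2.90% higher in the knockdown). The median limma log2 fold change, knockdown over control, was -0.51 for the members and 0.00044 for all genes tested. Since the members were chosen with earlier results of these data known, these comparisons with all genes are no independent evidence.

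**Figure D1:**
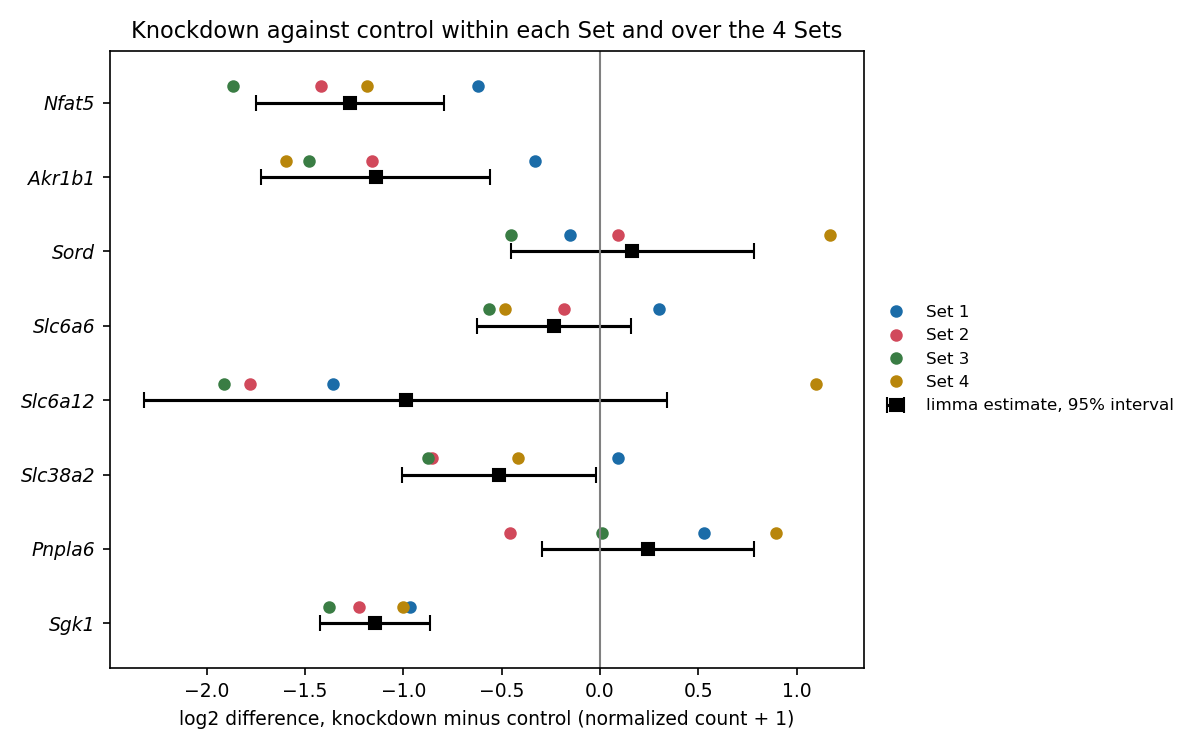
Differences between knockdown and control libraries on the log2(normalized count + 1) scale (x axis) for Nfat5 and the 7 osmolyte genes (rows). Coloured points are the 4 Sets, and black squares with bars are limma estimates with 95% intervals; the intervals of Nfat5, Akr1b1, Sgk1 and Slc38a2 lie below 0, and those of the other 4 genes span it.

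Sorbitol is made by aldose reductase, the product of Akr1b1 (ENSRNOG00000009513), and is turned into fructose by sorbitol dehydrogenase, the product of Sord (ENSRNOG00000017291). Akr1b1 measured 39084, 21062, 25709.5 and 3162 in knockdown libraries 1 to 4, against 49064, 47079, 71783 and 9553 in control libraries 1 to 4. Set 4 was far below the other Sets in both groups, and knockdown libraries 1 to 3 all lay above control library 4, so the groups overlapped although every Set had the lower value in the knockdown. As shares of control, Akr1b1 stood at 79.7%, 44.7%, 35.8% and 33.1% in the knockdown of Sets 1 to 4. For Akr1b1 limma gave a log2 fold change of -1.14 (SE 0.244, 95% interval -1.72 to -0.56), with an adjusted p of 0.0821. DESeq2 with the Set as a block gave an adjusted p of 0.00016 and the authors' deposited table lists a log2 fold change of -0.99 with an adjusted p of 0.000271. Without the Set as a block the adjusted p of Akr1b1 was 0.749 in limma and 0.624 in DESeq2. A limma log2 fold change at or below that of Akr1b1 was found for 1.99% of genes tested.

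Sord measured 548, 487, 677 and 1001 in knockdown libraries 1 to 4, against 609, 457, 927 and 444 in control libraries 1 to 4. It was lower in Sets 1 and 3 and higher in Sets 2 and 4, and knockdown library 4 held 225% of its control. Limma put the log2 fold change of Sord at 0.16 (SE 0.259, 95% interval -0.46 to 0.78), with an adjusted p of 0.741, and without Set 4 it was -0.17. The RNA of the enzyme that makes sorbitol was thus lower in every Set and that of the enzyme that removes it was not, and the difference between these genes was not tested.

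Of the 7 genes listed for the polyol pathway, 6 were tested, 4 lay below 0 and 2 above, and the median log2 fold change was -0.57. Both DESeq2 with the Set as a block and the authors' deposited table call 3 of them lower and 0 higher. The 3 are Akr1b1 and its relatives Akr1b8 and Akr1b7. Of all genes, 5.13% and 5.22% were called lower. Akr1b8, an aldo-keto reductase close in sequence to aldose reductase, measured 27535, 9118, 17376 and 8287 in knockdown libraries 1 to 4, against 46851, 16876, 25325 and 77382 in control libraries 1 to 4. It was lower in every Set, most of all in Set 4, where control library 4 was the highest of the 8. Its limma log2 fold change was -1.36 (SE 0.446, adjusted p 0.145), and the authors' deposited table lists -0.94 with an adjusted p of 0.0202. Akr1b7 had few reads, with 9.25 ± 8.50 in knockdown and 32.1 ± 15.8 in control cells (SD, n = 4), and was lower in all 4 Sets. Whether reads were shared between these related genes was not tested, so their separate values are uncertain. Khk, whose enzyme phosphorylates fructose, had a limma log2 fold change of 0.28 (adjusted p 0.501).

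**Figure D2:**
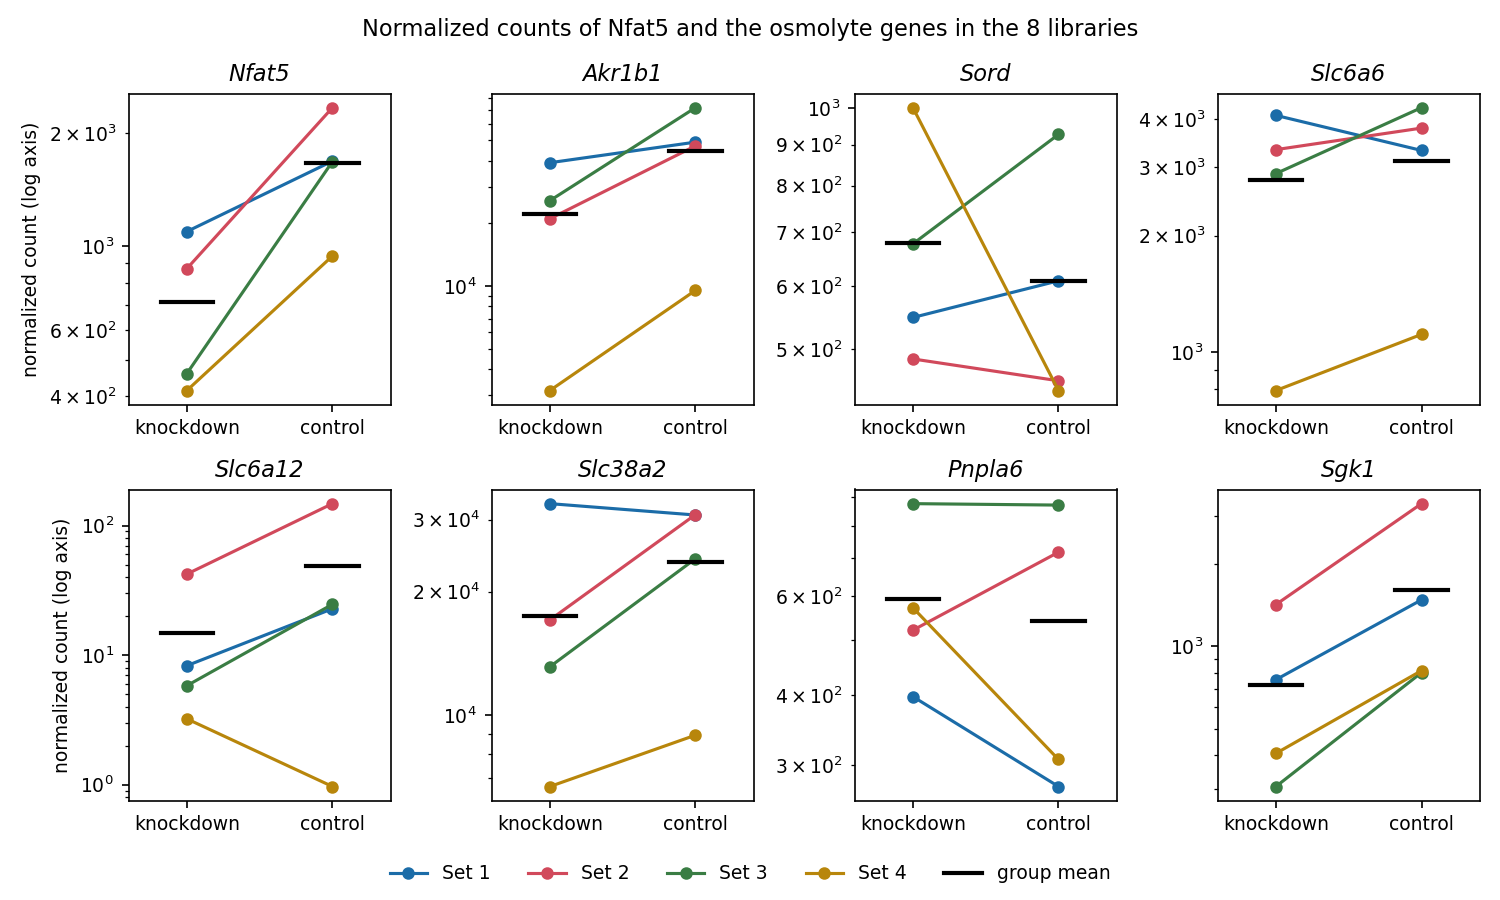
Normalized counts (y axes, log scale, a separate range for each gene) of Nfat5 and the 7 osmolyte genes in knockdown and control libraries (x axis). Lines join the 2 libraries of a Set and black bars are group means. The lines of Nfat5, Akr1b1 and Sgk1 lie lower at the knockdown end in all 4 Sets, while those of the other genes slope in both directions.

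For myo-inositol, the sodium-coupled importer gene Slc5a3 is not analysed here, and the 6 genes tested of 9 on the list do other steps. Of these, 4 lay above 0 and 2 below, with a median log2 fold change of 0.25. Isyna1, which makes inositol phosphate from glucose 6-phosphate, measured 506, 539, 287 and 218 in knockdown libraries 1 to 4, against 491, 1738, 1373 and 379 in control libraries 1 to 4. It was level in Set 1 and lower in the other Sets, and DESeq2 with the Set as a block called it lower (adjusted p 0.0174, limma 0.127). Impa1, which encodes a phosphatase that frees inositol, measured 1152, 942, 1129 and 818 in knockdown libraries against 1377, 1347, 1372 and 1391 in control libraries. All knockdown libraries of Impa1 lay below all control libraries, with a limma log2 fold change of -0.45 (SE 0.125, adjusted p 0.111), and DESeq2 with the Set as a block did not call it (adjusted p 0.0552). Impa2, a second phosphatase gene of this step, went the other way. Its mean was 171 in knockdown and 130 in control libraries, higher in all 4 Sets without overlap. Its limma log2 fold change was 0.40 (SE 0.148, adjusted p 0.181), and DESeq2 with the Set as a block did not call it (adjusted p 0.225). Ip6k1, an inositol hexakisphosphate kinase gene, was higher in all 4 Sets without overlap, with a log2 fold change of 0.49, and DESeq2 with the Set as a block called it higher (adjusted p 0.0144, limma 0.0969). The proton-coupled inositol transporter gene Slc2a13 was higher in all 4 Sets as well, at 0.55 (adjusted p 0.156).

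Taurine is imported by the sodium-coupled transporter that Slc6a6 (ENSRNOG00000009019) encodes. Slc6a6 measured 4092, 3337, 2893 and 795 in knockdown libraries 1 to 4, against 3321, 3793, 4285 and 1110.2 in control libraries 1 to 4. Set 4 was the lowest Set in both groups, and the knockdown library was higher in Set 1 and lower in Sets 2 to 4. The limma log2 fold change was -0.23 (SE 0.164, 95% interval -0.62 to 0.16), with an adjusted p of 0.433 in limma and 0.542 in DESeq2 with the Set as a block. On the linear scale the interval runs from 64.8% to 112% of control, so the 45.3% estimated for Akr1b1 lies outside it. The interval of Akr1b1 itself, 30.3% to 67.9% of control, overlaps that of Slc6a6. The difference between these genes was not tested. Among enzyme genes of taurine synthesis, Csad, the decarboxylase, was at -0.09 and Ado at -0.12 on the limma log2 scale, whereas Cdo1, the cysteine dioxygenase that starts the route, was at 1.34 (SE 0.514, adjusted p 0.188). Cdo1 was higher in all 4 Sets, with 671, 1367, 1148 and 2957 in knockdown libraries against 521, 468, 1092 and 285 in control libraries. The amino acid carrier gene Slc36a1 was at -0.26 (adjusted p 0.537). Of the 5 genes tested for taurine, 1 lay above 0 and 4 below. None was called by limma, by DESeq2 with the Set as a block or in the authors' deposited table. Of all genes, these called 0%, 9.18% and 9.31%.

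TonEBP binds a short element called the tonicity-responsive enhancer (TonE), whose consensus begins with TGGAAA. RefSeq promoter windows of build GRCr8, from 250 bases before to 50 bases after an annotated start, were matched by symbol for 6 of the 7 members, and Akr1b1 had no match. On either strand TGGAAA was found in 3 of the 8 windows of these members, against 22.7% of 33469 windows of all genes, and the TonE consensus, which contains it, in 1 window, that of Slc6a6, against 5.98% of all windows. The Slc6a6 window lies at chr4:125752252-125752551 on the plus strand. It is shown because it holds the consensus, in capitals, on the opposite strand between 161 and 151 bases before the start.
Slc6a6: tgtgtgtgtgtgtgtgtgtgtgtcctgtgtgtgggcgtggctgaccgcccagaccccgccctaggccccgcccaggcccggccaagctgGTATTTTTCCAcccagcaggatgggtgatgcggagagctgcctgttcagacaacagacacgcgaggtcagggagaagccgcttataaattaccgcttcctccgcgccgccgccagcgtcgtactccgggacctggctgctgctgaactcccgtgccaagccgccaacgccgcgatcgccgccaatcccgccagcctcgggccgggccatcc
A match describes letters and not binding.

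Betaine is imported by the transporter that Slc6a12 (ENSRNOG00000013547) encodes. Its reads were few, 10, 52, 6 and 3 in knockdown libraries 1 to 4, against 26, 111, 20 and 1 in control libraries 1 to 4. As normalized counts these are 8.28, 42.2, 5.80 and 3.22 in the knockdown, against 22.8, 147, 24.6 and 0.966 in control. Set 2 was the highest in both groups, Sets 1 to 3 had the lower value in the knockdown, and Set 4 had too few reads to give a direction. The knockdown values of Sets 1 to 3 were 36.3%, 28.6% and 23.5% of their controls. Over all Sets limma gave a log2 fold change of -0.99 (SE 0.556, 95% interval -2.32 to 0.34, adjusted p 0.334), a value on the log2(normalized count + 1) scale that understates changes at such low counts, and it was -1.68 without Set 4. The authors' deposited table lists -0.87 with an adjusted p of 0.0613. With the Set as a block, DESeq2 gave a larger change of -1.40 (adjusted p 0.113) and edgeR one of -1.50 (adjusted p 0.132). The promoter window of Slc6a12 held neither motif. Among the 8 genes tested of 15 for betaine and choline, 4 lay above 0 and 4 below. None was called by any of limma, DESeq2 with the Set as a block and the authors' deposited table. Of all genes, these called 0%, 9.18% and 9.31%. Chka, the kinase that commits choline to lipid synthesis, was at 1.05 (adjusted p 0.183) and higher in 3 of 4 Sets, and Chdh, which oxidises choline towards betaine, was at -0.39 (adjusted p 0.551). Slc44a2, a choline transporter-like gene, was at 0.64 and higher in 3 of 4 Sets (adjusted p 0.190).

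Glycerophosphocholine is released from phosphatidylcholine by the neuropathy target esterase, the product of Pnpla6 (ENSRNOG00000000977), and is cut by phosphodiesterases. Pnpla6 measured 397, 521, 875 and 572 in knockdown libraries 1 to 4, against 275, 718, 870.0 and 307 in control libraries 1 to 4. It was higher in Sets 1 and 4, lower in Set 2 and level in Set 3. The limma log2 fold change was 0.24 (SE 0.225, 95% interval -0.30 to 0.78, adjusted p 0.554), and it was 0.03 without Set 4 and 0.48 without Set 2. Gdpd5, a phosphodiesterase that breaks glycerophosphocholine down, measured 156, 206, 236 and 266 in knockdown libraries 1 to 4, against 127, 129, 139 and 151 in control libraries 1 to 4. Every knockdown library lay above every control library, with a log2 fold change of 0.64 (SE 0.158), and DESeq2 with the Set as a block called it higher (adjusted p 0.0320, limma 0.1001). Gpcpd1, a second such phosphodiesterase gene, was at 0.63 and higher in 3 of 4 Sets (adjusted p 0.296), and Gdpd1 was at 0.48 and higher in all 4 (adjusted p 0.133). Lypla2, a lysophospholipase gene, was at 0.35 and higher in all 4 Sets (adjusted p 0.166). The phospholipase gene Pnpla8 was lower in all 4 Sets at -0.38 (adjusted p 0.128). Of the 10 genes tested for this osmolyte, 8 lay above 0 and 2 below, and the median was 0.29. Gdpd5 was the single call of the authors' deposited table, where 4.09% of all genes were called higher.

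Slc38a2 (ENSRNOG00000006305) encodes a sodium-coupled importer of small neutral amino acids, known to rise in salt-stressed cells before other osmolytes accumulate. It measured 32802, 17050.4, 13104 and 6681 in knockdown libraries 1 to 4, against 30769, 30843, 24069 and 8919 in control libraries 1 to 4. Set 1 was slightly higher in the knockdown, Sets 2 to 4 were lower, and Set 4 was the lowest Set in both groups. The shares of control were 107%, 55.3%, 54.4% and 74.9% in Sets 1 to 4. The limma log2 fold change was -0.51 (SE 0.206, 95% interval -1.01 to -0.02), with an adjusted p of 0.203, and 11.2% of genes tested had a value at or below it. DESeq2 with the Set as a block gave an adjusted p of 0.106 and the authors' deposited table lists 0.112. Of 7 tested members of this transporter family, 5 lay below 0 and 2 above. None was called by limma, by DESeq2 with the Set as a block or in the authors' deposited table. Of all genes, these called 0%, 9.18% and 9.31%. Slc38a1, the closest relative in function, was at -0.11 (adjusted p 0.706). Slc38a7, a lysosomal member, lay lower in every knockdown library than in any control library, at -0.50 (SE 0.159, adjusted p 0.135), with 113, 125, 97.7 and 105 in the knockdown against 138, 182, 159 and 146 in control. Slc38a3, a glutamine transporter gene with few reads, measured 38.1, 14.6, 9.67 and 36.5 in knockdown libraries 1 to 4, against 29.8, 7.97, 6.16 and 2.90 in control libraries 1 to 4. It was higher in all 4 Sets at 1.25 (SE 0.541, adjusted p 0.231), and Slc38a10 was at -0.16 (adjusted p 0.578).

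Sgk1 (ENSRNOG00000011815) encodes the serum and glucocorticoid-induced kinase, a kinase whose gene is known to be induced by cell shrinkage and which raises the activity of sodium channels and of several osmolyte carriers. It measured 756, 1423, 308 and 406 in knockdown libraries 1 to 4, against 1479.8, 3326, 802 and 816 in control libraries 1 to 4. Set 2 was the highest in both groups and Sets 3 and 4 were low, and the overlap came from these levels, since the shares of control were close to each other at 51.1%, 42.8%, 38.3% and 49.8%. The limma log2 fold change was -1.14 (SE 0.118, 95% interval -1.43 to -0.86), with an adjusted p of 0.0578, and the gene stood at rank 6 of 12383 by p. DESeq2 with the Set as a block gave an adjusted p of 1.91e-10, and the authors' deposited table lists -1.08 with an adjusted p of 2.84e-10. With any 1 Set left out the limma estimate lay between -1.20 and -1.07. Without the Set as a block the adjusted p of Sgk1 was 0.579 in limma and 0.404 in DESeq2, so its call rests on comparing libraries within their Set.

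Sgk1 has 3 RefSeq windows, and the 2 that hold TGGAAA are shown with it in capitals, as TTTCCA where it lies on the opposite strand. They lie at chr1:24805521-24805820 and chr1:24804782-24805081 of GRCr8, both on the minus strand, and neither holds the whole TonE consensus.
Sgk1 second start: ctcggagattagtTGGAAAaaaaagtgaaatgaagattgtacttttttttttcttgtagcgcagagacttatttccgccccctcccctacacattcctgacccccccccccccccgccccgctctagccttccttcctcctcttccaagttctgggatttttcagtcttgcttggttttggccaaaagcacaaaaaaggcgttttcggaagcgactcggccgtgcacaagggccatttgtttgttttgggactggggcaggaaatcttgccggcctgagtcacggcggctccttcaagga
Sgk1 last start: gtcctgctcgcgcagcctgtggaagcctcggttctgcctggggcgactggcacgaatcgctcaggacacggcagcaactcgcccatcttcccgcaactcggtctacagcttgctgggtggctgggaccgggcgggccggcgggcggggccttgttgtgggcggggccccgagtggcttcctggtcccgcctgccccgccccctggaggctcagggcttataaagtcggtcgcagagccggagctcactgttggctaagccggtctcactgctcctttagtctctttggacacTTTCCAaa
At the second start TGGAAA lies between 237 and 232 bases before the start, and at the last it lies after the start, on the opposite strand.

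Of the 12 genes listed for SGK kinases and partners, 11 were tested, 8 lay below 0 and 3 above, and the median was -0.23. Sgk1 was the single call of DESeq2 with the Set as a block and of the authors' deposited table. Of all genes, these called 5.13% and 5.22% lower. Sgk3, the endosomal relative of the kinase, measured 103, 132, 136 and 119 in knockdown libraries 1 to 4, against 114, 211, 240.3 and 192 in control libraries 1 to 4, which was lower in all 4 Sets at -0.58 (SE 0.174, adjusted p 0.125). Nedd4l, the ubiquitin ligase that the kinase restrains, was at -0.23 and lower in Sets 1 and 2 (adjusted p 0.433), and Tsc22d3, a glucocorticoid-induced partner, was at -0.37 and lower in all 4 Sets (adjusted p 0.163). Pdpk1, the kinase that activates SGK kinases, was at 0.34 and higher in all 4 Sets (adjusted p 0.227). Other genes known to rise with salt are given for comparison, from a list chosen with earlier results of these data known, so it is no independent evidence of a direction. All 8 tested, Nfat5 among them, lay below 0 with a median of -0.78. The authors' deposited table calls 6 lower, Nfat5 included, and 0 higher, where 5.22% of all genes were called lower. Slc12a2, the sodium, potassium and chloride importer of volume recovery, was at -0.92 (SE 0.183, adjusted p 0.0765), and the glucose transporter gene Slc2a1 was at -0.76 (SE 0.114, adjusted p 0.0591). The water channel gene Aqp1 was at -1.66 (SE 0.418, adjusted p 0.101), with 252, 92.5, 678 and 8.58 in knockdown libraries against 265, 263, 4472 and 48.3 in control libraries. The chaperone gene Hspa4l was at -0.79 (SE 0.267, adjusted p 0.153) and was lower in Sets 1 to 3. Hspb1, also on this list, was at -0.15 (adjusted p 0.693), with 101%, 71.9%, 62.6% and 144% of control in Sets 1 to 4.

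**Figure D3:**
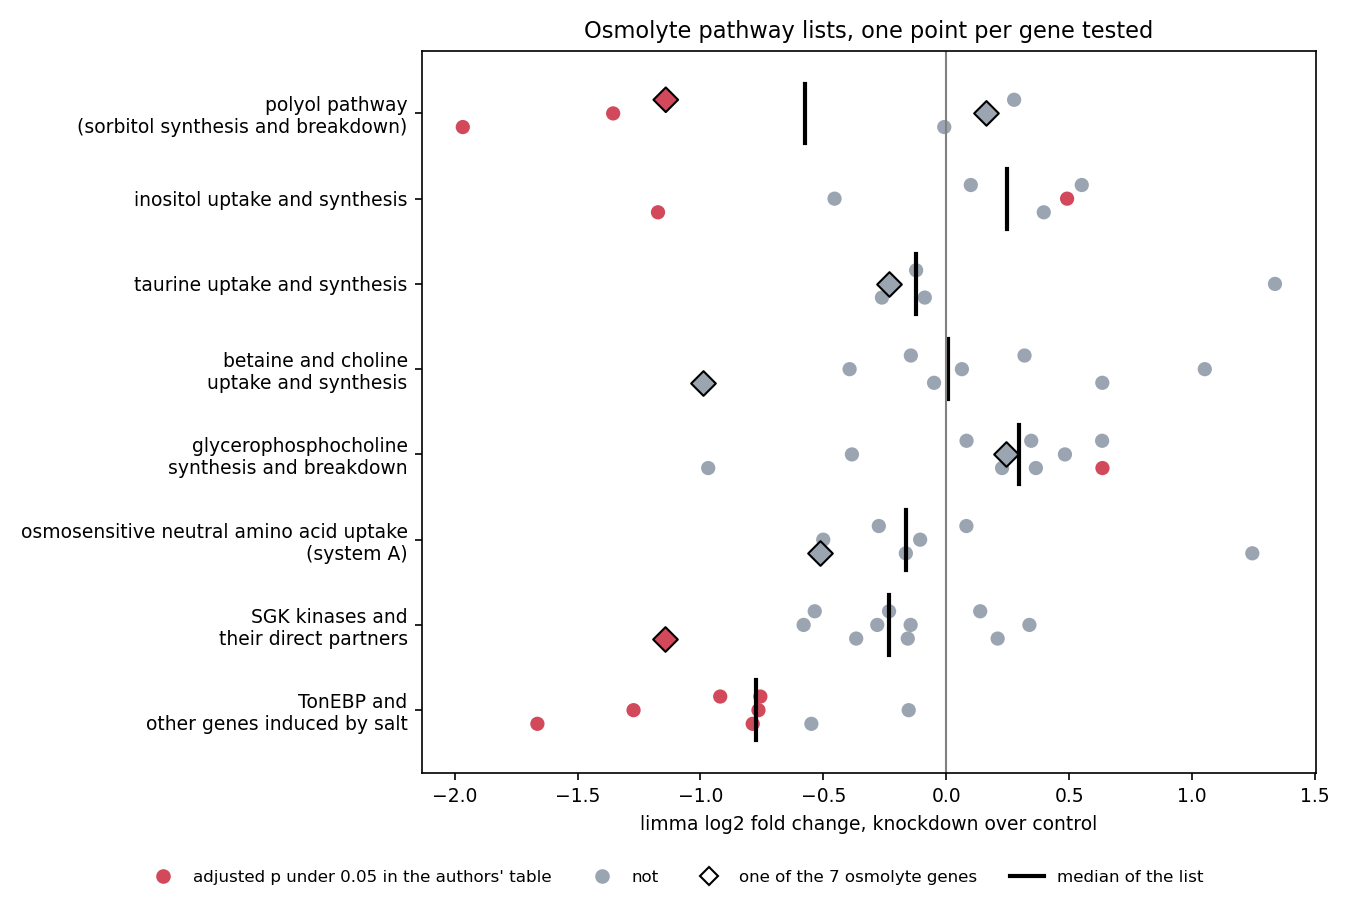
Limma log2 fold changes, knockdown over control (x axis), of each tested gene on 8 pathway lists (rows), with list medians as black lines and the 7 osmolyte genes as diamonds. Red marks genes with an adjusted p under 0.05 in the authors' deposited table; all 8 salt-induced genes lie below 0, and 8 of 10 glycerophosphocholine genes lie above it.

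The Sets differed more than the groups for every member. On the log2(normalized count + 1) scale, 79.8% of the sum of squares of Akr1b1 over the 8 libraries lay between Sets and 16.96% between groups, and for Slc6a6 94.3% lay between Sets and 1.83% between groups. Sgk1 had the largest share between groups of the 7, at 31.5%, beside 67.8% between Sets. Medians over all genes tested were 64.3% between Sets and 10.3% between groups, and Nfat5 itself had 34.2% and 58.5%. In control cells alone, the highest library exceeded the lowest 7.51-fold for Akr1b1, 4.15-fold for Sgk1, 3.86-fold for Slc6a6, 3.46-fold for Slc38a2 and 2.085-fold for Sord. Akr1b1, Slc6a6, Slc6a12 and Slc38a2 were lowest in Set 4 in both groups, 4 of 7 members against 15.9% of genes tested, and so was Nfat5. Pnpla6 was instead lowest in Set 1 and highest in Set 3 in both groups. The Set 4 control library also held the lowest Nfat5 of the controls, at 942 against 1677 to 2332 in the others.

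**Figure D4:**
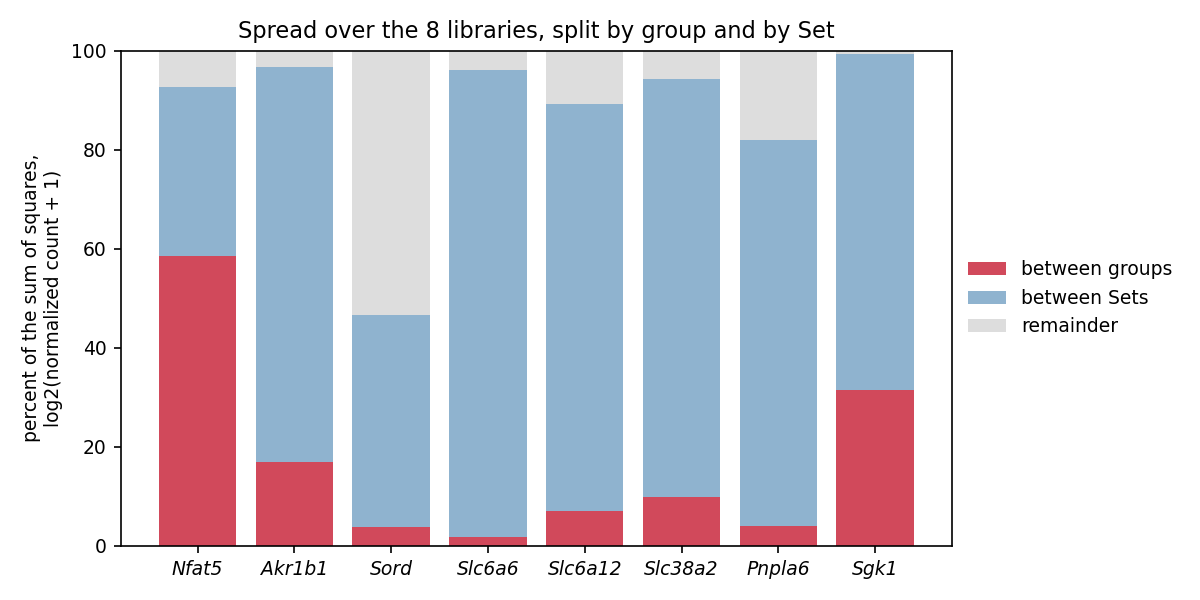
Share of the sum of squares over the 8 libraries (y axis, percent, log2(normalized count + 1)) that lay between groups, between Sets or in the remainder, for Nfat5 and the 7 osmolyte genes. Sets took the largest part for 6 of the 7 osmolyte genes, and for Sord the remainder was the largest.

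How far the members were lowered also varied with the Set. Nfat5 as a normalized count kept 65.0%, 37.4%, 27.4% and 43.9% of its control in Sets 1 to 4. The difference between knockdown and control was least negative or most positive in Set 1 for 4 members, Akr1b1, Slc6a6, Slc38a2 and Sgk1, and in Set 4 for the other 3, of which Slc6a12 had only 3 and 1 reads there in knockdown and control. It was lowest in Set 3 for 5 members, Sord, Slc6a6, Slc6a12, Slc38a2 and Sgk1, in Set 4 for Akr1b1 and in Set 2 for Pnpla6. Nfat5 itself kept the largest share of its control in Set 1 and the smallest in Set 3. Over all genes tested, 26.3% had their highest difference in Set 1 and 34.01% their lowest in Set 3. With 4 Sets these are descriptions, and no relation to Nfat5 was tested.

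The genes most like each member over the 8 libraries were found by the root mean square difference of centred log2(normalized count + 1) profiles, among genes with a mean of at least 100. For Akr1b1 these were Zfp347 and Slco4a1, an organic anion carrier gene, at 0.486 and 0.492, beside an SD of 1.48 for Akr1b1 itself. For Sgk1 they were Gem, which encodes a small GTPase, at 0.267 and Fam110b at 0.396 (SD of Sgk1 1.09). For Slc38a2 they were Pcyox1 at 0.216 and Otulin at 0.244 (SD 0.879), and for Slc6a6 Gins3 at 0.189 and the zinc transporter gene Slc39a10 at 0.252 (SD 0.921). Sord was nearest to Eml1 and Phyh (0.179 and 0.1805, SD 0.448), and Pnpla6 to Meis2 and Cdkn2c (0.132 and 0.177, SD 0.644). Slc6a12 was nearest to Hspa4l at 0.834 and Nupr1 at 0.929 (SD 2.00). These profiles share the same 8 libraries and their Sets, so likeness includes the differences between Sets.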

How the data were processed

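RNA of 8 libraries was sequenced in single reads of 50 cycles, per the labels. The submitters' processing notes name Novoalign 2.08.01, DESeq2 1.10.1 and build rn5. Which tool did what, how reads were assigned to genes, and whether strand was used is not given in the sources used here. Signal values deposited by the authors are normalized counts, of which 100% came out as whole reads (within 0.001 reads) once scaled by 1 step per library. The deposited log2 fold changes, knockdown over control, and the deposited adjusted p-values are the authors' own.

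The 12383 genes that passed edgeR's filterByExpr on these reads were tested with limma 3.58.1 (trend, log2(normalized count + 1), Set as a block, 2-sided, Benjamini-Hochberg). DESeq2 1.42.0 ran on the reads of all listed genes and edgeR 4.0.16 (quasi-likelihood) on the filtered ones, in R 4.3.3. Same-numbered libraries deviated together (correlations over genes 0.681 to 0.805), so the Set number in the titles was taken to pair them. The fits were tested on simulated reads, with 100 genes changed by a log2 fold of 1 in size and 100 by 2. With the Set as a block, limma recovered 69% and 98% of them with 14 false calls. DESeq2 recovered 82% and 98% with 41 false calls, so its calls were the less strict there. CPM are relative to reads on listed genes.

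The members, lists and tests were chosen with earlier results of these data known. Of 80 list entries 63 were in the file. Named are the 7 members, Nfat5, Gpcpd1, Gdpd5, Impa1, Isyna1, Csad, Cdo1, Slc38a1, Sgk3 and Nedd4l, up to 4 genes of each list with the lowest limma p, and the 2 genes most like each member. Impa2 is given beside Impa1, and Hspb1 beside Hspa4l.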

Additional observations from a re-analysis of the deposited data

Results flagged for a closer look

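In 6 of 104 checks (52 of the named genes in 2 groups of 4 libraries) a single library stood apart. The gap to its nearest neighbour exceeded Dixon's 95% critical share of the group's range, and chance alone marks about 1 in 20 such groups. For Slc6a12 this held in both groups, and both times in Set 2. Knockdown library 2 held 42.2, against 3.22 to 8.28 in the other knockdown libraries (gap 0.870 of the range), and control library 2 held 147, against 0.966 to 24.6 in the other control libraries (gap 0.838). The group means of Slc6a12 therefore rest on Set 2. Slc2a1 was high in knockdown library 1, at 2722 against 1054 to 1337 (gap 0.830). Aqp1 was high in control library 3, at 4472 against 48.3 to 265 (gap 0.951). Eml1, a gene most like Sord, was high in the same library, at 755 against 425 to 469 (gap 0.867), and Pdpk1, which activates the SGK kinases, was high in control library 1, at 815 against 450.4 to 501 (gap 0.863).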

How the results depend on the processing

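All 7 members and Nfat5 kept their direction under each of the 14 alternatives (13 for Slc6a12, which did not pass the filter without Set 2), except Sord without Set 4, at -0.17 (adjusted p 0.573). Limma with the Set as a block called 0 genes. Higher and lower calls were 14 and 16 with a pseudocount of 10, 509 and 644 with DESeq2 and the block, 7 and 7 with limma-voom and the block, 68 and 95 with DESeq2 and no block, 311 and 387 at an adjusted p under 0.10, 0 and 1 in limma with no block, and 0 and 1 with total read scaling. EdgeR with the block called 0 genes, with 2763 at an unadjusted p under 0.05. Members called lower were 1 with a pseudocount of 10, 1 with limma-voom, 2 with DESeq2 and the block and 2 at an adjusted p under 0.10. Sgk1 was called with a pseudocount of 10 (-1.13, adjusted p 0.0439), limma-voom (-1.14, 0.0497) and DESeq2 with the block (-1.14, 1.91e-10), Akr1b1 (-1.14, 0.00016) and Nfat5 (-1.27, 1.01e-05) with DESeq2 and the block. The cause of these moves was not tested.

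Without the replicate block, limma gave the same estimates with adjusted p of 0.579 for Sgk1, 0.749 for Akr1b1 and 0.378 for Nfat5, and the pairing raised genes with an unadjusted p under 0.05 to 2856, against 1176 without it. With 1 Set left out the log2 fold changes ran from -1.41 to -0.99 for Akr1b1, -0.17 to 0.37 for Sord, -0.41 to -0.12 for Slc6a6, -1.68 to -0.68 for Slc6a12, -0.72 to -0.39 for Slc38a2, -1.20 to -1.07 for Sgk1, 0.03 to 0.48 for Pnpla6 and -1.49 to -1.07 for Nfat5. Depth limits Slc6a12 alone of the members, at 1 to 111 reads per library.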
